A study of Mus musculus with 18 samples.

Results

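The 10 genes described here code for core parts of macroautophagy: Ulk1, Becn1, Atg5, Atg7, Map1lc3a, Map1lc3b, Gabarapl1, Sqstm1, Bnip3 and Tfeb. They were chosen by name, with earlier results of these data known. All 10 were found among the 31665 genes with an exon length in the deposited tables. Autophagy encloses part of the cytoplasm in a double membrane, the autophagosome, which then fuses with a lysosome. A kinase complex around ULK1 starts the process, a lipid kinase complex with Beclin 1 marks the membrane, and conjugation enzymes such as ATG7 and ATG5 attach the small Atg8 proteins (LC3 and GABARAP) to it. Cargo receptors such as p62 and BNIP3 bind Atg8 proteins, and the transcription factor TFEB switches on genes of lysosomes and autophagy. In skeletal muscle autophagy is known for clearing damaged mitochondria and for the loss of protein in wasting.

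Messenger RNA of whole quadriceps was sequenced from 18 mice, 1 library per mouse. Wild type (WT) animals came from C57BL/6J, and the mutant (dyW) animals from B6.129S1(Cg)-Lama2tm1Eeng/J, which carries a knock-out allele of the gene for the laminin alpha 2 chain and models the congenital muscular dystrophy LAMA2-CMD; the zygosity of each sampled mouse is not in its labels. An untreated cohort, for which the labels name no treatment, held 3 WT and 4 dyW mice with an age label of 5 weeks. A second cohort with an age label of 3 weeks held 3 WT and 3 dyW mice given PBS, the vehicle, and 2 WT and 3 dyW mice given TD139, an inhibitor of the sugar-binding protein galectin-3. The protocol places tissue collection at 5 weeks for both cohorts, and the labels give neither the dose of TD139 nor how or for how long it was given. Each group held 1 female and otherwise males.

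Depth was 15.8 to 45.2 M (mega) exon reads per library, lowest in dyW PBS replicate 1. Lama2 itself lay at 0.545 to 1.10 RPKM (exon reads per kilobase and per M mapped reads) in the 10 dyW libraries and at 2.18 to 5.02 in the 8 WT libraries. Lgals3, which codes for galectin-3, lay at 37.5 to 65.4 RPKM in untreated dyW against 1.29 to 1.90 in untreated WT, and at 9.90 to 28.5 in dyW PBS against 1.31 to 3.23 in WT PBS. Muscle fibre markers summed to 37000 RPKM or more in every library. Slow fibre markers stood apart in 3 libraries, at 1670 and 2050 RPKM in untreated dyW replicates 3 and 4 and 1950 in WT PBS replicate 1, against 247 or less in the others. WT PBS replicate 1 also had a Schwann cell marker sum of 828 RPKM, against 161 or less elsewhere. Adipocyte markers summed to 2080, 1290, 663 and 259 RPKM in untreated dyW replicates 1 to 4, against 81.1 to 340 in untreated WT. Of these 4 markers 1 was called higher in untreated dyW than in untreated WT. All 8 macrophage markers were higher in dyW than in WT in the untreated cohort and under PBS; their sum was 302 to 506 RPKM against 34.8 to 56.9 in the former and 88.4 to 232 against 26.7 to 35.5 in the latter. Markers of regenerating fibres rose in 6 of 6 and 5 of 6, with sums of 152 to 271 RPKM against 5.58 to 14.9 and of 83.4 to 134 against 17.8 to 31. In the untreated cohort Schwann cell markers rose in 4 of 4 (sums of 84.4 to 147 RPKM against 22.1 to 42.5), fibroblast markers in 4 of 6 (1180 to 2110 against 554 to 669) and slow fibre markers in 3 of 6; under PBS 2 of 6 fibroblast markers and none of the Schwann cell or slow fibre markers passed. In bulk tissue, fewer cells of a type and less RNA per cell cannot be told apart, and the part of these cell types in the values below was not tested.

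The members spanned a wide range of levels. By the median over the 18 libraries, Map1lc3a was highest at 136 RPKM, followed by Sqstm1 at 104, Bnip3 at 64.6, Map1lc3b at 18.8, Gabarapl1 at 14.6, Tfeb at 9.17, Ulk1 at 7.501, Becn1 at 6.88, Atg5 at 6.07 and Atg7 at 1.42. Even Atg7, the lowest, had at least 122 exon reads in each library. Neighbours in this order were not always separate: Ulk1 exceeded Becn1 in 9 of 18 libraries, of which 7 were WT, and Map1lc3a exceeded Sqstm1 in 13 of 18, of which 4 were WT and 9 dyW. Sqstm1 exceeded Bnip3, Bnip3 exceeded Map1lc3b and Atg5 exceeded Atg7 in 18 of 18 libraries. Within a gene the highest library was 1.44 times the lowest for Becn1 and 3.86 times for Gabarapl1.

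**Figure D1:**
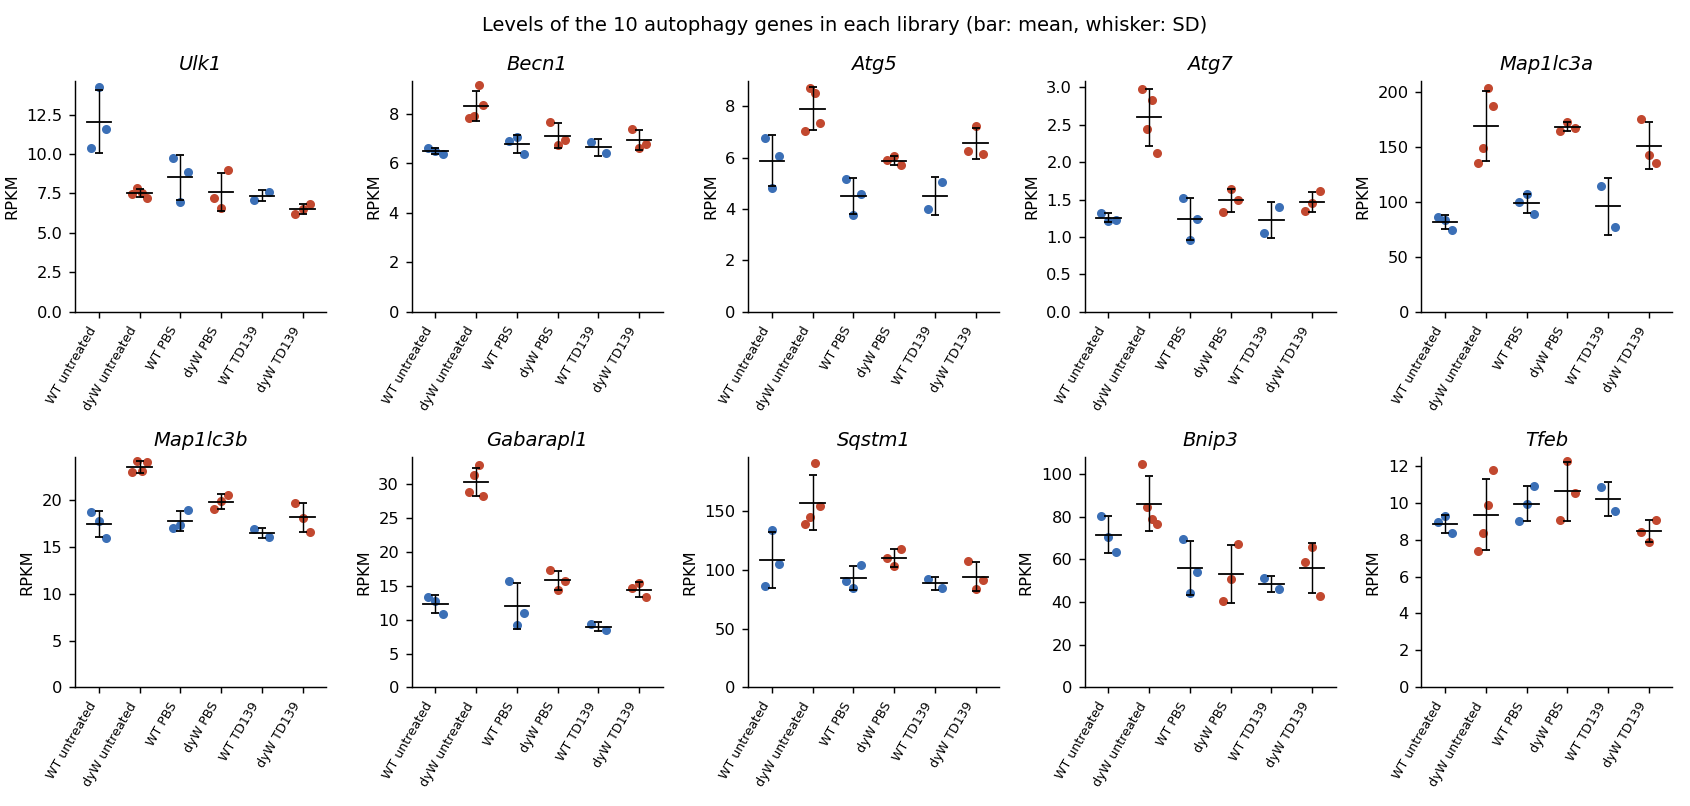
RPKM of each of the 10 genes (vertical axis, from 0) in each of the 6 groups; points are libraries (blue WT, red dyW), the bar is the mean and the whisker the SD. Gabarapl1 and Atg7 are highest in untreated dyW, Ulk1 is highest in untreated WT, and Map1lc3a is above 135 RPKM in the 10 dyW libraries and below 115 in the 8 WT libraries.

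The first comparison, untreated dyW against untreated WT, asks how the dystrophic muscle differs from healthy muscle at 5 weeks. Ulk1 fell, Gabarapl1, Map1lc3a and Atg7 rose, and Tfeb fell, so 5 of the 10 members passed the threshold (edgeR's quasi-likelihood test, Benjamini-Hochberg adjusted p under 0.05 over all genes tested). The background was as high: 49.8% of the 14846 genes tested were called, 24.7% higher and 25.1% lower. The members' median log2 fold change was -0.12, against 0.03 over all genes tested. The share of members called was thus near the background.

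Fold changes below are fitted after TMM scaling, which sets the bulk of genes to no change, whereas RPKM is relative to all mapped reads. The 2 scales differ in this comparison. On log2(RPKM + 0.1) without scaling, the median of all genes was 0.51 in place of 0.03, and 85.5% of called genes were higher in place of 49.6%. The share of exon reads taken by the 10 most abundant genes was 23.6% to 28% in untreated WT and 15.3% to 20.4% in untreated dyW; its part in the shift was not tested. Values on both scales are given where a member's sign turned between them.

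Ulk1 (ENSMUSG00000029512, mm10 chr5:110784488-110810097, minus strand) codes for the kinase that starts autophagosome formation. It lay at 10.4, 14.2 and 11.6 RPKM in the untreated WT libraries and at 7.49, 7.82, 7.51 and 7.20 in the untreated dyW libraries. The groups did not overlap, and the 4 dyW libraries were closer together than the 3 WT libraries. The fitted log2 fold change was -1.24 (SE 0.157, adjusted p = 0.000482), a 2.37-fold lower level, and it stayed lower on unscaled RPKM (log2 fold change -0.67, adjusted p = 0.00269 by limma). Fold change in this cohort ran with exon length: with the genes split into 4 length classes of like size, the median was 0.28 in the shortest and -0.31 in the longest. Ulk1 is in the longest class and stood at the percentile 10.1 of fold change there, 0.94 below the median of the class.

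Becn1 (ENSMUSG00000035086, chr11:101285952-101302286, minus strand) codes for Beclin 1, a subunit of the lipid kinase complex that marks the forming membrane. Its RPKM was 6.62, 6.48 and 6.36 in untreated WT and 7.85, 7.91, 9.18 and 8.37 in untreated dyW. The groups did not overlap on either scale, but in opposite directions: after TMM scaling each dyW library was below each WT library, with a log2 fold change of -0.19 (SE 0.096, adjusted p = 0.124), while on unscaled RPKM it was 0.35 (adjusted p = 0.0192 by limma). No direction can be given for Becn1. Reads of Cntd1, which overlaps it on the opposite strand, could be counted with it if strand was not used, which is not given in the sources used here.

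Of the conjugation enzymes among the members, Atg7 was called after TMM scaling and Atg5 was not. Atg7 (ENSMUSG00000030314, chr6:114643097-114860614, plus strand) codes for the E1-like enzyme that activates the Atg8 proteins and ATG12. Its RPKM was 1.32, 1.22 and 1.22 in untreated WT and 2.98, 2.45, 2.83 and 2.13 in untreated dyW, with no overlap. The log2 fold change was 0.50 (SE 0.151, adjusted p = 0.0229), and it was 0.98 on unscaled RPKM. The call was lost without any 1 of the 3 WT libraries (adjusted p = 0.0578 to 0.0701), at a log2 fold change of 0.47 to 0.52. Against the median of its length class, the second longest, Atg7 was 0.53 higher (percentile 73.6). The annotation places 3 processed pseudogenes on the same strand within its span (Gm19040, Gm44331 and Gm44332), whose reads may be counted with it. Atg5 (ENSMUSG00000038160, chr10:44268358-44364291, plus strand), whose product joins ATG12 in the complex that sets the site of lipid attachment, had a log2 fold change of -0.12 (adjusted p = 0.443). On unscaled RPKM it turned to 0.43 and was called higher (adjusted p = 0.0359 by limma), as was Atg7. The microRNA gene Mir1929 overlaps Atg5 on the same strand.

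Of the Atg8 genes, whose products coat the autophagosome membrane and hold cargo receptors, Gabarapl1 gave the largest rise among the members. Gabarapl1 (ENSMUSG00000030161, chr6:129533160-129542346, plus strand) lay at 13.4, 12.8 and 10.9 RPKM in untreated WT and at 28.9, 31.4, 32.8 and 28.3 in untreated dyW. Every dyW library was above every WT library, on RPKM and after scaling. The log2 fold change was 0.75 (SE 0.106, adjusted p = 0.000766), a 1.68-fold higher level after TMM scaling. It is in the shortest length class, and against the median of that class it was 0.46 higher (percentile 68.9), less than Atg7 against its own class. Gm44243 overlaps Gabarapl1 on the same strand and 1700101I11Rik on the other, so its reads may be shared.

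Map1lc3a (ENSMUSG00000027602, chr2:155276297-155278073, plus strand), which codes for LC3A, lay at 86.4, 83.9 and 74.8 RPKM in untreated WT and at 136, 150, 204 and 187 in untreated dyW. The groups did not overlap, and replicates 3 and 4, the dyW libraries high in slow fibre markers, were the highest. The log2 fold change was 0.49 (SE 0.146, adjusted p = 0.0218), and it was 0.21 above the median of the shortest length class (percentile 59.4). Without replicates 3 and 4 it was 0.34 (adjusted p = 0.0663), and the call was also lost without WT replicate 1 (adjusted p = 0.0641) or 3 (adjusted p = 0.0866).

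Map1lc3b (ENSMUSG00000031812, chr8:121590361-121598760, plus strand) codes for LC3B, the form most used as an autophagosome marker. It lay at 18.7, 17.7 and 15.98 RPKM in untreated WT and at 22.98, 24.2, 23.03 and 24.01 in untreated dyW, apart on RPKM. After scaling the log2 fold change was -0.11 (SE 0.118, adjusted p = 0.442), and unscaled it was 0.43 (adjusted p = 0.00668 by limma). An uncharacterised gene, Gm20388, overlaps it on the same strand, and Zcchc14 overlaps it on the other, so its reads may be shared.

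The cargo receptors did not pass the threshold. Sqstm1 (ENSMUSG00000015837, chr11:50199366-50210827, minus strand), which codes for p62, the receptor for ubiquitin-tagged cargo, lay at 86.2, 134 and 105 RPKM in untreated WT and at 139, 145, 191 and 154 in untreated dyW. Its RPKM in each dyW library exceeded that in each WT library, yet after scaling the log2 fold change was -0.04 (SE 0.202, adjusted p = 0.89). On the unscaled values it was 0.55 (adjusted p = 0.031 by limma), close to the median of all genes on that scale. Bnip3 (ENSMUSG00000078566, chr7:138890836-138909519, minus strand), which codes for a receptor on mitochondria, lay at 80.5, 70.6 and 63.3 RPKM in untreated WT and at 105, 84.5, 78.9 and 76.4 in untreated dyW, and these ranges overlap. Its log2 fold change was -0.27 (SE 0.167, adjusted p = 0.212). Without dyW replicate 1, the library highest in adipocyte markers, it was -0.39 (adjusted p = 0.034). On unscaled RPKM it turned to 0.265 (adjusted p = 0.156 by limma), so no direction can be given for Bnip3. On the opposite strand Mrnip overlaps Sqstm1, and Gm45507 and the pseudogene Gm18258 overlap Bnip3, and reads from these genes may be counted together.

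Tfeb (ENSMUSG00000023990, chr17:47737030-47792419, plus strand) lay at 8.98, 9.27 and 8.34 RPKM in untreated WT and at 7.36, 8.34, 9.89 and 11.8 in untreated dyW. The dyW libraries lay on both sides of the WT libraries. The log2 fold change was -0.48 (SE 0.157, adjusted p = 0.0323), but it was 0.05 (adjusted p = 0.79 by limma) on unscaled RPKM, and the groups overlapped after scaling too. The call was lost without filtering low counts (adjusted p = 0.0517) and without each of WT replicates 2 and 3 and dyW replicates 1, 2 and 3 (adjusted p = 0.0635 to 0.112). With these libraries left out 1 at a time, the log2 fold change stayed between -0.507 and -0.379. The call of Tfeb as lower thus turned on the scaling and was lost without single libraries.

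**Figure D2:**
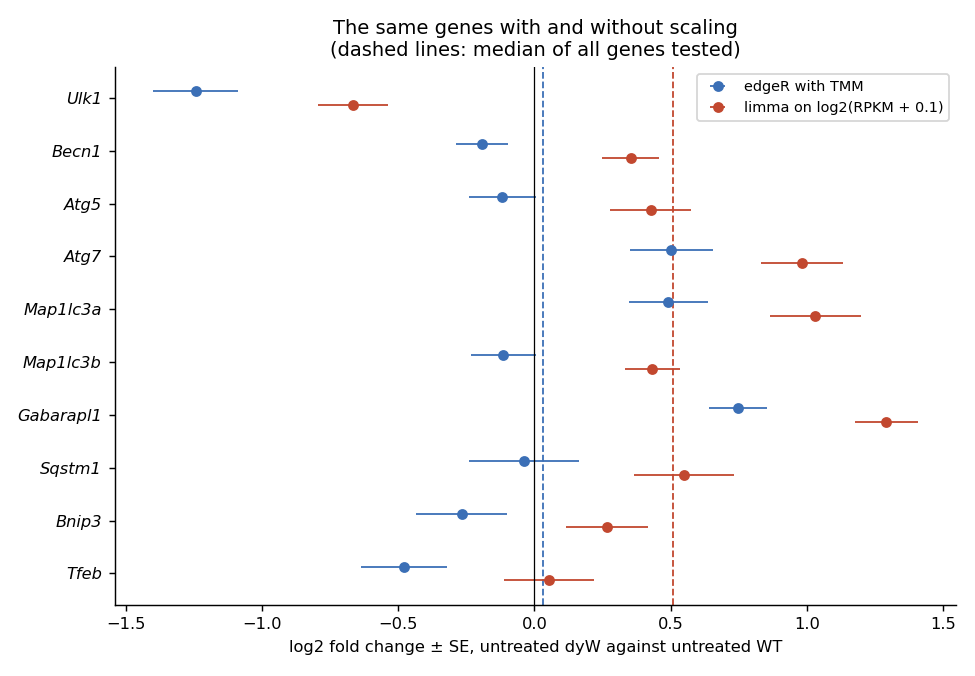
Log2 fold change ± SE (horizontal axis) of the 10 genes in untreated dyW against untreated WT, after TMM scaling (edgeR, blue) and on unscaled log2(RPKM + 0.1) (limma, red); dashed lines are the medians of all genes, 0.03 and 0.51. Ulk1 is below 0 and Gabarapl1, Map1lc3a and Atg7 are above 0 on both scales, while the other 6 change sign.

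The authors' deposited table for dyW against WT gave the same signs for the 10 members. An FDR under 0.05 was given to 3 of them in the authors' deposited table: Ulk1 (log2 fold change -1.27, FDR 3.09e-11), Gabarapl1 (0.72, FDR 0.000382) and Tfeb (-0.50, FDR 0.0216). Atg7 (FDR 0.0672) and Map1lc3a (FDR 0.0906) did not pass in the authors' deposited table.

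A ratio of 2 genes within a library does not depend on the scaling between libraries. Map1lc3a exceeded Map1lc3b by a factor of 4.68 ± 0.0556 (SD, n = 3) in untreated WT and 7.18 ± 1.39 (n = 4) in untreated dyW, per length of exon. In the second cohort the ratio was 5.6 ± 0.778 (n = 3) in WT PBS, 8.51 ± 0.300 (n = 3) in dyW PBS, 8.34 ± 0.516 (n = 3) in dyW TD139 and 5.80 ± 1.37 (n = 2) in WT TD139. The WT and dyW libraries did not overlap in the untreated cohort or under PBS. Over both cohorts, with labels permuted within each, the ratio was 1.52 times higher in dyW (exact two-sided permutation p = 0.00286, adjusted p = 0.0343 over 12 ratio tests). This test uses the same untreated libraries in which Map1lc3a was called higher and Map1lc3b was not. Both genes were chosen with earlier results of these data known, and the adjustment over 12 tests does not cover that choice. Within a cohort the exact p was 0.0571 for the untreated mice and 0.1 under PBS, the smallest that 3 against 3 can give. Leaving out any 1 of the 7 untreated libraries raised the adjusted p of the combined exact test to 0.06 to 0.08, with the log2 difference between 0.55 and 0.65. In each of these cases 2 permutations were as extreme as the data, as with all libraries, but of 300 or 400 in place of 700, so the rise came from the smaller number of permutations.

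Map1lc3a has one of the shorter exon lengths (1181 bp) and Map1lc3b one of the longer (7517 bp). The medians of their length classes differed in the untreated cohort (0.28 and -0.31) but little under PBS (-0.02 and -0.07). The log2 difference of the ratio was 0.60 in the former and 0.61 in the latter. The ratio of Gabarapl1 to Gabarap was 0.292 ± 0.0427 in untreated WT and 0.313 ± 0.0554 in untreated dyW (exact permutation p = 0.714, adjusted p = 0.935); no difference in the ratio was detected, although both genes rose. The ratio of Bnip3 to Bnip3l, which codes for a related mitochondrial receptor, was 4.84 ± 0.344 and 4.94 ± 0.568 (exact permutation p = 0.857, adjusted p = 0.935).

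**Figure D3:**
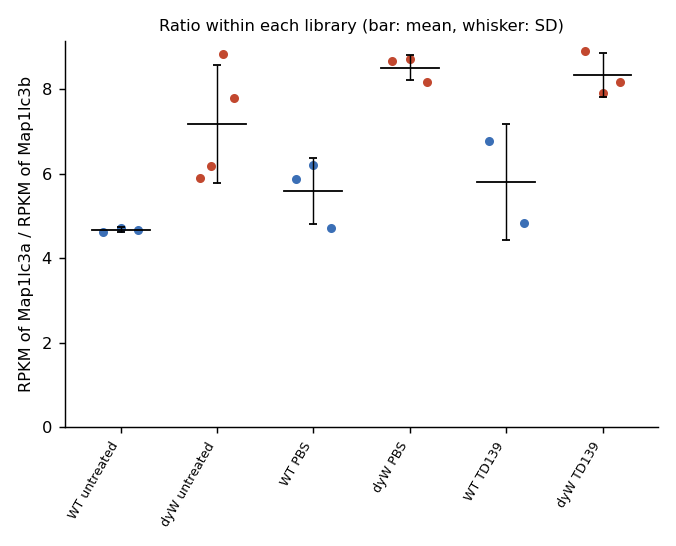
Ratio of Map1lc3a RPKM to Map1lc3b RPKM (vertical axis, from 0) in each library by group; bars are means and whiskers SD. WT libraries lie between 4.62 and 6.78 and dyW libraries between 5.90 and 8.91; the groups are apart in the untreated cohort and under PBS.

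The 10 members were set beside a wider list of 85 autophagy genes in 10 roles, all of which were tested. In the untreated cohort 8 of the 85 were higher and 30 lower in dyW, and the 75 genes that are not members had 5 higher and 28 lower with a median log2 fold change of -0.27. This is a share of 44.7% called against the 49.8% background (24.7% higher and 25.1% lower), with more lower than higher after TMM scaling. On unscaled RPKM the balance was the opposite, with 38 of the 85 called higher and 12 lower by limma. That shift ran through all genes tested, of which 7636 of 14846 were called higher and 1293 lower on that scale. The unscaled counts per role below stand beside that background, and those after TMM scaling beside 24.7% higher and 25.1% lower. The share called after TMM scaling also ran with exon length. It was 41.9% lower and 15.8% higher in the longest class, against 13.3% and 30.6% in the shortest. The part of exon length in the counts of the wider list was not tested. Of the 30 lower, 12 were also called lower on unscaled RPKM, 10 kept a log2 fold change below 0 there and 8 turned above 0; the 8 higher were called higher on both scales.

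The initiation complex had 3 of 5 genes lower on both scales, and 1 of the 5 was called higher on unscaled RPKM. Beside Ulk1 these were Rb1cc1, which codes for the scaffold FIP200 (log2 fold change -1.34, adjusted p = 0.000136), and Ulk2, the paralogue of Ulk1 (-1.54, adjusted p = 0.00019). Rb1cc1 lay at 7.06 ± 0.219 RPKM in untreated WT and 4.10 ± 0.106 in untreated dyW, and Ulk2 at 24.4 ± 2.62 and 12.4 ± 0.671. Atg13 was not called (-0.29, adjusted p = 0.206).

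In the Atg8 family 3 of 5 genes rose and none fell, beside 24.7% of all genes higher and 25.1% lower. Map1lc3a and Gabarapl1 are in the shortest length class, where 30.6% of genes were called higher. The third beside Gabarapl1 and Map1lc3a was Gabarap (log2 fold change 0.67, adjusted p = 0.00615), with 42.8 ± 7.14 RPKM in untreated WT and 99.2 ± 19.2 in untreated dyW. Gabarapl2 had a log2 fold change of -0.11 (adjusted p = 0.488). On unscaled RPKM all 5 genes of the family were called higher, as were 7636 of 14846 genes. There Map1lc3b (0.43) and Gabarapl2 (0.425) lay below the median of all genes, 0.51.

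Among the conjugation enzymes 1 of 11, Atg7, was higher and 5 were lower, led by Atg12 (-0.64, adjusted p = 0.00129), Atg16l1 (-0.56, adjusted p = 0.00259) and Atg4d (-0.48, adjusted p = 0.00401). None of those 5 was called lower on unscaled RPKM, where 3 of them, Atg4d among these, turned above 0. In the lipid kinase complex 1 of 7, the regulatory subunit Nrbf2, was higher (0.33, adjusted p = 0.0301), against 3 of 7 on unscaled RPKM.

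Of 8 genes for membrane supply and its effectors, 3 were lower, among them Atg9a, the lipid scramblase of Atg9 vesicles (-1.25, adjusted p = 0.00124), and Atg2b, a lipid transfer protein (-0.85, adjusted p = 0.000581). On unscaled RPKM only Atg9a of these 3 was called lower (-0.73, adjusted p = 0.00548 by limma), and 4 of the 8 were called higher. Among 12 genes for fusion with the lysosome 5 were lower. Epg5, a tether (-1.57, adjusted p = 0.000403), and Stx17, the fusion SNARE (-0.98, adjusted p = 0.00139), were among 3 also lower on unscaled RPKM, where 6 of the 12 were called higher.

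Cargo receptors had 1 of 11 higher, the reticulophagy receptor Tex264 (0.56, adjusted p = 0.00468), and 2 lower, Nbr1 (-0.56, adjusted p = 0.0104) and Tax1bp1 (-0.34, adjusted p = 0.0305), neither of which was called lower on unscaled RPKM: Nbr1 was at -0.01 and Tax1bp1 turned to 0.20, while 6 of the 11 were called higher. Among 8 mitophagy genes Phb2 was higher (0.66, adjusted p = 0.00302) and 3 were lower, including the mitochondrial receptor Fundc1 (-0.90, adjusted p = 0.000263) and the kinase Pink1 (-0.68, adjusted p = 0.0106). On unscaled RPKM only Fundc1 of these 3 was called lower (-0.35, adjusted p = 0.0177 by limma) and 3 of the 8 were called higher. Pink1 overlapped between the groups there, at 139.9 to 159.5 RPKM in untreated WT and 105.3 to 166.1 in untreated dyW.

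Of 6 transcription factors, Tfe3, a relative of Tfeb, was higher (0.75, adjusted p = 0.000809) at 1.09 ± 0.0622 RPKM in untreated WT and 2.67 ± 0.219 in untreated dyW. Zkscan3 (-0.82, adjusted p = 0.0113), Mitf (-0.36, adjusted p = 0.027) and Tfeb were lower; none of these 3 was called lower unscaled, where Mitf turned to 0.19 and Tfeb to 0.05.

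The largest falls in the wider list were in genes for kinases that sense nutrients and energy and for their regulators. Of these 12 genes 6 were lower and none higher after TMM scaling. On unscaled RPKM 4 of the 6 were still called lower, 1 turned above 0 and 4 other genes of this role were called higher. Prkab2 (-2.60, adjusted p = 0.000171), Prkaa2 (-2.16, adjusted p = 0.00023) and Prkag3 (-1.91, adjusted p = 0.00173) code for subunits of AMPK. Deptor (-1.83, adjusted p = 0.00106) codes for an inhibitor of mTOR, and these 4 were lower on both scales. Prkab2 lay at 90.0 ± 21.2 RPKM in untreated WT and 21.8 ± 2.39 in untreated dyW. Muscle fibre markers fell in 4 of 7 in the same comparison, and their part in these falls was not tested.

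**Figure D4:**
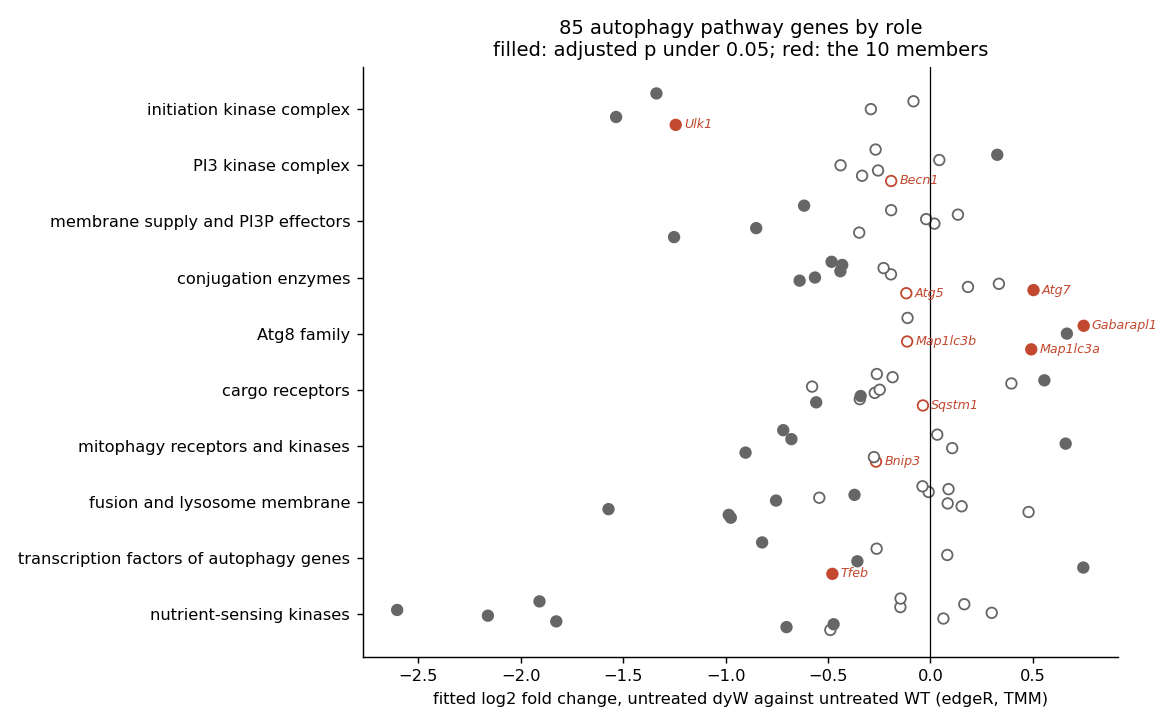
Fitted log2 fold change (horizontal axis; edgeR, TMM) of 85 autophagy genes in untreated dyW against untreated WT, 1 row per role; filled points have an adjusted p under 0.05 and the 10 members are red and named. Filled points lie mostly left of 0 (30 lower, 8 higher), and 3 of 5 Atg8 genes lie to the right. Of all 14846 genes, 3724 were called lower and 3671 higher on this scale. On unscaled RPKM 12 of the 85 were called lower and 38 higher, beside 1293 lower and 7636 higher of all 14846 genes.

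The second comparison of genotypes used the mice given PBS. None of the 10 members passed the threshold there, with a background of 2.68% of 15331 genes called (368 or 2.4% higher, 43 or 0.28% lower). An unadjusted p under 0.05 was found for 2 members, beside 2315 of the 15331 genes. DESeq2 also called no member. Ulk1 lay at 9.78, 6.93 and 8.83 RPKM in WT PBS and at 7.22, 6.61 and 8.97 in dyW PBS, which overlap. Its log2 fold change was -0.44 (SE 0.169, adjusted p = 0.232). Map1lc3a lay at 99.7, 107 and 89.5 RPKM in WT PBS and at 165, 173 and 168 in dyW PBS, with no overlap. Its log2 fold change was 0.48 (SE 0.196, adjusted p = 0.271), and on unscaled RPKM it was called (0.77, adjusted p = 0.0213 by limma). Of the wider list none of 85 was called; the smallest adjusted p was 0.0551, for Prkag2, an AMPK subunit (log2 fold change 0.59).

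Gabarapl1 lay at 15.7, 9.26 and 11.01 RPKM in WT PBS and at 17.3, 14.4 and 15.7 in dyW PBS. Replicate 1, which had the slow fibre and Schwann cell markers, was the highest of the WT libraries. The log2 fold change of Gabarapl1 was 0.12 (SE 0.156, adjusted p = 0.775), and without that library it was 0.25 (adjusted p = 0.411). Without it Ulk1 was at -0.43 (adjusted p = 0.229) and Map1lc3a at 0.40 (adjusted p = 0.327). Atg7 lay at 1.53, 0.964 and 1.24 RPKM in WT PBS and at 1.34, 1.64 and 1.49 in dyW PBS, with a log2 fold change of -0.01 (adjusted p = 0.99).

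Whether the genotype changed a gene by different amounts in the cohorts was itself tested on the 18 libraries. None of the 10 members passed, with a background of 1.72% of 15771 genes called (0.526% with a positive and 1.2% with a negative difference). Of the 15771 genes 3583 had an unadjusted p under 0.05, as had 2 members. These were Ulk1, with a difference (untreated minus PBS) of -0.82 (SE 0.234, adjusted p = 0.0737), and Gabarapl1, with 0.61 (SE 0.182, adjusted p = 0.0792). DESeq2 called both (adjusted p = 0.0355 and 0.0146), and the adjusted p ranged from 0.0355 to 0.199 for Ulk1 and from 0.0146 to 0.174 for Gabarapl1 over the alternatives tried. For Ulk1 the mean RPKM of dyW was 7.51 ± 0.254 untreated and 7.60 ± 1.23 under PBS, while that of WT was 12.1 ± 1.97 and 8.51 ± 1.45. For Gabarapl1 it was the WT mean that lay alike, at 12.4 ± 1.31 and 12 ± 3.35, while dyW lay at 30.3 ± 2.14 and 15.8 ± 1.42. The cohorts differ in age label and in treatment, which cannot be told apart here.

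TD139 moved none of the members past the threshold. In dyW mice, TD139 against PBS gave 0 of 10 members and 0 of 15331 genes (background 0%; 583 genes had an unadjusted p under 0.05 and DESeq2 called 4 genes, none of them a member). The members' log2 fold changes ran from -0.30 for Tfeb to 0.20 for Atg5, and on log2 CPM after TMM the groups overlapped for each of the 10. On RPKM Tfeb and Atg5 did not overlap, in opposite directions, and the share of all genes apart on RPKM was not counted. With 3 libraries against 3 an exact permutation test cannot give a p below 0.1, so no change is read from this. Tfeb lay at 9.07, 12.2 and 10.5 RPKM in dyW PBS and at 8.42, 7.88 and 9.05 in dyW TD139, with an SE of 0.189 and an adjusted p of 0.888. Atg5 lay at 5.90, 6.06 and 5.69 RPKM in dyW PBS and at 6.27, 7.23 and 6.15 in dyW TD139. The SEs of the 10 members ran from 0.136 for Becn1 to 0.248 for Bnip3. Changes of that size, and larger ones after adjustment over 15331 genes, could not be told from 0. In the same comparison Rb1cc1 of the wider list, at 0.52 (SE 0.255), had an edgeR adjusted p of 0.888. Gabarapl1 lay at 14.7, 15.4 and 13.3 RPKM in dyW TD139, with a log2 fold change of -0.08 (SE 0.156) against dyW PBS. Map1lc3a lay at 175, 143 and 136 RPKM there (-0.11, SE 0.195), and Ulk1 at 6.21, 6.52 and 6.81 (-0.19, SE 0.169). In the authors' deposited table for the same comparison none of the 10 members had an FDR under 0.05, and their smallest FDR was 0.904.

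In WT mice TD139 against PBS also gave 0 of 10 members and 0 of 15331 genes (background 0%; 304 genes had an unadjusted p under 0.05, and DESeq2 called 3). Gabarapl1 lay at 9.42 and 8.52 RPKM in WT TD139, with a log2 fold change of -0.31 (SE 0.176), the farthest from 0 among the members. The TD139 effects of the genotypes were not shown to differ for any member: edgeR called 0 of 15331 genes in that test (background 0%; 294 genes had an unadjusted p under 0.05, and DESeq2 called 1), and the members' differences lay between -0.41 and 0.23.

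Under TD139, dyW against WT had 0 of 10 members called, against 1.04% of 15331 genes (0.757% higher, 0.287% lower). Tfeb, at 8.45 ± 0.588 RPKM in dyW TD139 and 10.2 ± 0.937 in WT TD139, had a log2 fold change of -0.62 (SE 0.209, adjusted p = 0.178). Ulk1 was at -0.52 (SE 0.187, adjusted p = 0.203), Gabarapl1 at 0.35 (SE 0.176, adjusted p = 0.365) and Map1lc3a at 0.32 (SE 0.220, adjusted p = 0.516).

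**Figure D5:**
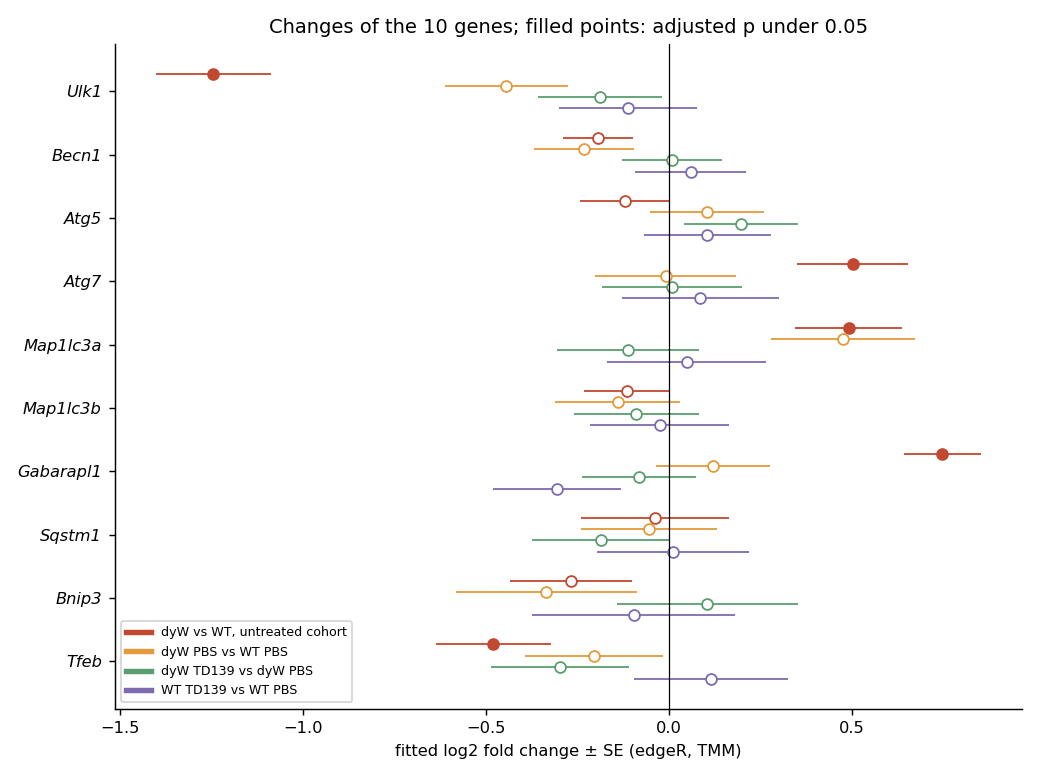
Fitted log2 fold change ± SE (horizontal axis; edgeR, TMM) of the 10 genes in 4 comparisons; filled points have an adjusted p under 0.05. The filled points are Ulk1, Atg7, Map1lc3a, Gabarapl1 and Tfeb in the untreated cohort; no point is filled for PBS or TD139, where values lie between -0.44 and 0.48.

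Each member was also matched to the 10822 genes compared for the likeness of their pattern, as the root mean square difference of centred log2 expression over the 18 libraries. A gene with no variation at all lay at 0.471 from Ulk1, 0.392 from Gabarapl1, 0.363 from Bnip3 and 0.288 from Map1lc3a. Ulk1 was nearest to Nipal3 (0.174) and Smtnl2 (0.182), against a median of 0.532 over all genes. Gabarapl1 was nearest to Pdcd4 (0.158) and to Atp6v1h (0.168), which codes for a subunit of the lysosomal proton pump, against a median of 0.523. Bnip3 was nearest to Optn (0.139), which codes for a cargo receptor of mitophagy, and Map1lc3a to Smpx (0.136), a small muscle protein. Within the members Becn1 and Map1lc3b were closest (0.115), little nearer than a gene with no variation (0.139 and 0.151). The libraries share genotype and cohort, so these distances are descriptions.

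RefSeq promoter windows (GRCm38.p6, 250 bases before to 50 after a transcript start) were given for 8 of the 10 members. They were searched on both strands for the E-box CACGTG, a palindrome that forms the core of the element bound by TFEB, the product of a member. The E-box was present in 3 of the 8, Atg5, Atg7 and Bnip3, against 8.09% of 27025 genes with a window. In the wider list it was present in 10 of 72 genes with a window, these 3 included. The FOXO core GTAAACA was in none of the 8, against 4.05% of genes. The stretches around the E-box (capitals) are shown 5′ to 3′ because they carry the letters that set these 3 members apart.
Atg5 chr10:44268280-44268338, plus strand, E-box starting 14 bases before the start: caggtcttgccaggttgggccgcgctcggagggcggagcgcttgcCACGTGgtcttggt
Atg7 chr6:114670919-114671014, plus strand, 132 bases before: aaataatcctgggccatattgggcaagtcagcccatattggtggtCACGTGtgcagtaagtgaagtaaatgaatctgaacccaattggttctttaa
Bnip3 chr7:138909564-138909659, minus strand, 108 bases before: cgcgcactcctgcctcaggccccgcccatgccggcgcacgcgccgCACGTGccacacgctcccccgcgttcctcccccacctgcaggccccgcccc
Of these 3 genes Atg7 was called in the untreated cohort (0.50) and Atg5 (-0.12) and Bnip3 (-0.27) were not; Ulk1 and Gabarapl1, the members with the smallest adjusted p, had no CACGTG in their windows. The RefSeq start used for Atg7 lies inside the span of the gene in GENCODE M21. A match of letters is a description and not a binding site.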

How the data were processed

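Quadriceps RNA of 18 mice was sequenced as stranded mRNA libraries, read in pairs of 58 bp, per the labels' protocols. The genome build was mm10, per the submitters' processing notes; the aligner and counter are not given in the sources used here. Per the file headers, the authors deposited total and unique exon read counts, an exon length and an RPKM per gene and library. The deposit also held the authors' own tables for 2 comparisons, with log2 fold changes, p-values and FDR-adjusted p-values, whose test is not given in the sources used here.

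Libraries were grouped by genotype, treatment and cohort in their labels. For total exon counts the test was that of edgeR 4.0.16 under R 4.3.3 (quasi-likelihood F-test, TMM, filterByExpr with minimum count 10 and minimum total 15, Benjamini-Hochberg over all genes tested, threshold 0.05); an adjusted p is from this test where the text names no other tool. The untreated cohort (7 libraries) and the other cohort (11) were fitted separately, and the difference between cohorts on 18. "Apart" or "overlap" for fitted values refers to log2 CPM after TMM. The exact permutation tests of within-library RPKM ratios were two-sided. The 10 members and the wider list were chosen with earlier results of these data known. By rule, the genes that could be named were the 10 members, Lama2, Lgals3, up to 3 other genes per role of the wider list by smallest p in the untreated cohort and up to 1 in each other comparison, and the 2 nearest patterns per member; Gabarap and Bnip3l enter as partners in the ratios, and overlapping genes by position. The list symbols matched 85 of 85, some under older names.

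As alternatives, the fits were repeated with DESeq2 1.42.0, with no low-count filter, with RLE size factors, with limma 3.58.1 on log2(RPKM + 0.1) and log2(RPKM + 1), unique reads, the sex label as a term, a joint fit of all 18 libraries, and each library omitted. Median-centred RPKM and the split by exon length were added after seeing the data. Labels do not say whether mice of a group share a litter. The edgeR p-values set a group difference against an estimate of the spread between mice that is pooled over the groups of a fit. The fitting code was tested on simulated data.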

Additional observations from a re-analysis of the deposited data

Results flagged for a closer look

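Prkab2, an AMPK subunit of the wider list, had a genotype effect that differed between the cohorts by the test of the difference itself: -1.71 on the log2 scale (untreated minus PBS, SE 0.350, adjusted p = 0.0369 by edgeR). Its fitted log2 fold change was -2.60 in the untreated cohort and -0.90 (adjusted p = 0.0812) under PBS, where it lay at 43.0 ± 8.72 RPKM in WT and 28.2 ± 3.95 in dyW (SD, n = 3 each). With 1 library left out at a time, no gene of the wider list was called in this test in 9 of 13 cases, among them the case without WT PBS replicate 1, the library high in slow fibre markers. The cause was not tested.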

How the results depend on the processing

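Untreated dyW against WT: limma on log2(RPKM + 0.1) and log2(RPKM + 1) called 8 and 8 members in place of 5. Over all genes they called 8929 and 8722 in place of 7395. On these scales the sign turned for Becn1 (0.35, 0.32), Atg5 (0.43, 0.38), Map1lc3b (0.43, 0.41), Sqstm1 (0.55, 0.54), Bnip3 (0.265, 0.262; not called) and Tfeb (0.054, 0.051); after centring each library on its median, limma gave the signs of edgeR for 9 of the 10 members, with Sqstm1 at 0.03, and called 5. Leaving out 1 library gave 5792 to 7713 genes, 2 to 5 members and 28 to 44 wider-list genes called, and Ulk1 and Gabarapl1 were called each time. dyW PBS against WT PBS: genes called were 864 (DESeq2), 952 and 814 (limma, pseudocount 0.1 and 1) and 656 (18 libraries in the fit) in place of 411. Both limma runs called 1 member, Map1lc3a, and the wider list had 3, 3, 2 and 1 called in that order. Leaving out 1 library gave 125 to 601 genes, 0 members and 0 to 1 of the wider list. dyW TD139 against WT TD139: genes called were 740 (DESeq2), 320 (no filter), 552 and 296 (limma) and 431 (18 libraries) in place of 160; the wider list had 3 with DESeq2, 1 with no filter, 3 with limma at 0.1, 1 with unique reads and 1 with 18 libraries. Leaving out 1 library gave 6 to 91 genes and 0 of either list. Effects of TD139: DESeq2 called 4 genes in dyW, 3 in WT and 1 for their difference; leaving out 1 library gave 0 to 0 in edgeR. Difference between cohorts: genes called were 1189 (DESeq2), 75 and 111 (limma) and 173 (limma, median-centred) in place of 272; DESeq2 called 2 members and 12 of the wider list, and limma at 1 called 3. Leaving out 1 library gave 0 to 637 genes, 0 to 1 members and 0 to 5 of the wider list; the member was Ulk1 without untreated WT replicate 1 (adjusted p = 0.0387). The causes of these moves were not tested.

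The Map1lc3a to Map1lc3b log2 ratio, with 1 library left out, differed by 0.491 to 0.686 (untreated), 0.496 to 0.693 (PBS), 0.547 to 0.65 (both) and -0.081 to 0.004 (TD139); Gabarapl1 to Gabarap by -0.004 to 0.21, -0.284 to 0.141, -0.095 to 0.117 and 0.001 to 0.16; Bnip3 to Bnip3l by -0.02 to 0.108, -0.525 to -0.201, -0.25 to -0.088 and 0.053 to 0.377. Uncalled members crossed 0 in 109 further fits without being called in either, from log2 fold changes of at most 0.28 in size. Depth limits Atg7 most, at 122 reads in its shallowest library. No paired analysis was possible because each library carries its own animal number and the replicate numbers follow accession order.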
